A study of Homo sapiens with 6 samples.

Results

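The genes of the histone clusters were followed in cells labelled HepG2, an established human liver cancer line, after knockdown of the transcription factor SOX9. Every probe set whose gene symbols, split where the deposited table joins several, held a name starting with HIST1H to HIST4H was taken, which gave 114 of the 49293 non-control probe sets and 71 of the 20808 genes that these name. Of these, 51 were assigned to 1 gene and covered 33 genes, while 63 were shared by 2 to 14 genes. Among the 71 histone genes named, 38 appeared on shared probe sets only. Sets that list the same genes could be aligned to different places, and which of the near-identical copies each set reads was not measured. By class, the probe sets assigned to 1 gene comprised 6 for the linker histone H1, 14 for H2A, 29 for H2B, 1 for H3 and 1 for H4. The shared sets comprised 13 for H2A, 11 for H2B, 19 for H3, 18 for H4 and 2 that mixed classes. By the table's alignments, 89 probe sets lay on chromosome 6, 24 on chromosome 1 and 1 on chromosome 12.

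Core histones H2A, H2B, H3 and H4 form the protein spool of the nucleosome, and H1 binds the DNA between nucleosomes. Most genes of the clusters are transcribed in S phase, when new chromatin is built, and their messages end in a stem-loop bound by SLBP instead of a poly(A) tail. Some cluster genes also give longer, polyadenylated transcripts, chiefly in cells that leave the cycle or differentiate. The labelling kit used here starts from the 3' end and primes on poly(A), so a signal is expected to reflect mainly such tailed transcripts. Stem-loop message is not expected to be labelled well, and the share of each kind in a signal was not measured.

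The knockdown arrays (3) held RNA of cells infected with a virus carrying a hairpin against Sox9, and the control arrays (3) held RNA of cells infected with the empty virus; both were grown in DMEM with 10% serum, and a clone of each was built. Separate cultures are not stated for the 3 arrays of either group, so the p-values rest on the spread among these arrays alone, and that spread may be technical. A difference between the clones cannot be told apart from an effect of the hairpin. In such bulk RNA, fewer cells with a transcript and less of it per cell cannot be told apart either.

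The knockdown samples carry the controls' empty-virus wording in their free-text description, whereas title, source name and genotype call them knockdown. SOX9 on probe set 11758216_s_at read 6.91, 7.08 and 6.90 in the knockdown arrays, against 8.15, 7.99 and 7.67 in the control arrays (log2 signal), a log2 difference of -0.97 (SE 0.13, limma adjusted p = 0.00294) that left 51.0% of the control signal. Probe set 11720447_s_at differed by -0.83 (limma adjusted p = 0.00470, or 0.0718 once poly-A spike-in levels entered as a covariate), and 11720448_at by -0.81 without passing the test (limma adjusted p = 0.0716), since control 3 read 4.67 within the knockdown range; without control 3 its limma adjusted p was 0.00230. Of 12 hepatocyte marker genes, 2 reached a mean signal of 5 (TTR and HNF4A), and the list's mean level was 3.77 to 3.98 in knockdown arrays and 3.71 to 3.91 in control arrays, which goes against the label. Leukocyte markers averaged 3.56 to 3.78 in knockdown arrays and 3.46 to 3.69 in control arrays, endothelial markers 4.72 to 4.97 and 4.67 to 5.13, fibroblast markers 3.99 to 4.07 and 3.86 to 3.97, and kidney epithelial markers 4.54 to 4.62 and 4.30 to 4.42. Poly-A spike-in controls, added RNAs that report on labelling, read 7.12, 6.79 and 6.93 in knockdown arrays, against 6.36, 6.48 and 6.95 in control arrays (two-sided exact permutation p = 0.3). The 3' minus 5' signal, a measure of RNA integrity, was 0.42, 0.37 and 0.24 for GAPDH in knockdown arrays and 0.04, 0.03 and 0.26 in control arrays, and 2.29, 2.34 and 2.19 against 2.56, 2.55 and 2.51 for ACTB (exact permutation p = 0.2 and 0.1, with 0.1 the smallest that 3 against 3 arrays allow). The part of these measures in the results below was not tested, except where a value with the spike-in covariate is given.

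Histone probe sets that passed the test were all lower in the knockdown. Of the 51 assigned to 1 gene, 9 were lower (17.6%) and 0 were higher; of the 63 shared sets, 12 were lower (19.0%) and 0 higher, at a limma adjusted p under 0.05 over all probe sets. Together these were 21 of 114 (18.4%), against 12.6% of all probe sets called in either direction. Over the whole array 6.68% of probe sets were called lower and 5.94% higher. At an unadjusted p under 0.05, 35 of the 114 histone probe sets passed. The share of all probe sets at that threshold was not counted, so this number has no background beside it. All 3 knockdown arrays lay below all 3 control arrays in 33 of the 114 (28.9%), against 14.8% of all probe sets, and above them in 2 (1.75%), against 14.8%. The median difference was -0.12 over the histone probe sets and 0.01 over all probe sets. Of the histone probe sets 68.4% had a negative difference, against 47.7% of all. Calls that were also at least 2-fold lower numbered 7 of 114 (6.14%), of which 4 belonged to 1 gene and 3 were shared; over all probe sets this held for 0.905%.

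**Figure D1:**
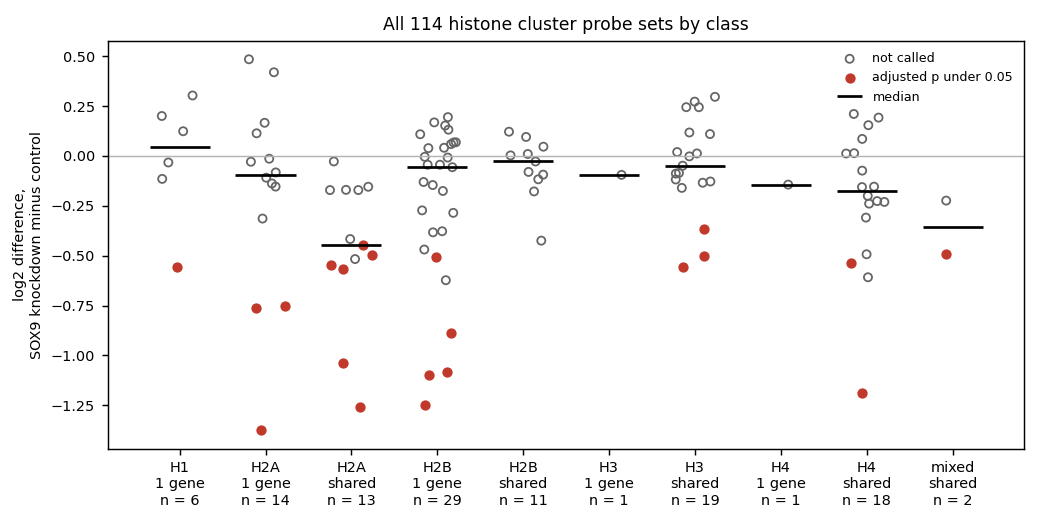
Log2 difference, SOX9 knockdown minus control, of each of the 114 histone probe sets by class, apart for those assigned to 1 gene and those shared; filled points had a limma adjusted p under 0.05 and bars are medians. All 21 filled points lie below 0, and shared H2A is the column with the lowest median, -0.45, with all 13 of its points below 0.

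Most histone probe sets were dim. A mean log2 signal of at least 5 was reached by 28 of 114 (24.6%), against 56.4% of all probe sets. Of these 28, 15 were called lower (53.6%), against a background of 10.3% among all probe sets of that brightness. Of the 86 dimmer ones, 6 were called lower (6.98%), against 1.97%. Across probe sets the Spearman correlation of signal with difference was -0.346 for the 51 sets of 1 gene and -0.393 for the 63 shared sets. These points share 6 arrays, and several share transcripts. The brightest sets did not continue the trend: HIST1H2BK at a mean of 11.0, and a pair of shared H4 sets near 13, were not called. In the H4 pair every knockdown array still lay below every control array.

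**Figure D2:**
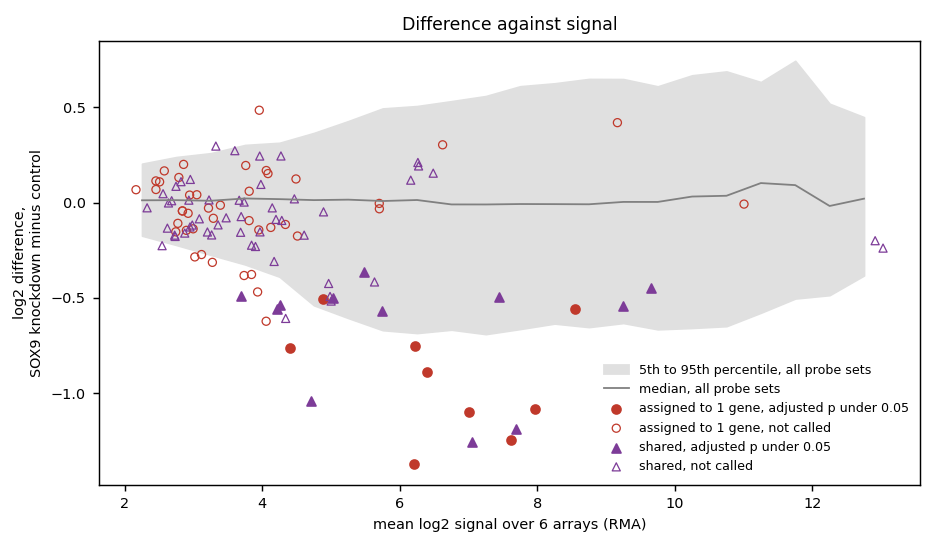
Log2 difference, SOX9 knockdown minus control, against the mean log2 signal over 6 arrays, for the histone probe sets; the band spans the 5th to the 95th percentile of all probe sets at that signal. Filled points (limma adjusted p under 0.05) are mostly at signals over 5, and several lie well under the band, while HIST1H2BK, at a mean of 11.0, lies close to the median line; the 2 sets near 13 lie beyond the end of the band.

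HIST1H2AC (current symbol H2AC6), a cluster H2A gene on chromosome 6, showed the greatest difference of the probe sets assigned to 1 gene. Its probe set 11736244_s_at read 5.28, 5.59 and 5.66 in knockdown arrays, against 6.83, 7.16 and 6.67 in control arrays. Every knockdown array lay at least a full log2 unit below every control array, and the difference was -1.37 (SE 0.15, limma adjusted p = 0.00114), or 38.6% of the control signal. The table aligns its target to positions 26124396 to 26138605 of chromosome 6, plus strand, in a build that the sources used here do not give. That is a stretch of 14210 bases, which is long for a histone gene.

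HIST1H2BD (H2BC5) was measured by 3 probe sets, and all 3 were lower. Probe set 11728152_a_at read 6.90, 6.95 and 7.11 in knockdown arrays, against 8.33, 8.29 and 8.09 in control arrays, a difference of -1.25 (SE 0.11, limma adjusted p = 0.000430). Probe set 11724021_at, whose alignment runs over 13230 bases from 26158348 to 26171577, read 7.47, 7.32 and 7.47 in knockdown arrays, against 8.20, 8.71 and 8.61 in control arrays, a difference of -1.09 (limma adjusted p = 0.00217). The groups were well apart on both sets, one aligned over the long stretch and one over 526 bases. Probe set 11728153_x_at differed by -0.89 (limma adjusted p = 0.00299), with a limma adjusted p of 0.0530 when the spike-in level was a covariate.

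HIST2H2BE (H2BC21), an H2B gene of the chromosome 1 cluster known for its polyadenylated transcript, read 6.52, 6.49 and 6.36 in knockdown arrays, against 7.37, 7.84 and 7.45 in control arrays on probe set 11717090_a_at. The groups did not overlap, and the difference was -1.10 (SE 0.14, limma adjusted p = 0.00183), or 46.6% of the control signal. Its other 2 probe sets, 11758765_at and 11758766_x_at, held identical values on all arrays, with a mean of 2.84, and a difference of -0.04 (limma adjusted p = 0.873). The 3 sets share an alignment of 3505 bases, so the gene was called on its bright set and not on its dim ones.

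HIST1H2BJ (H2BC11), an H2B gene on chromosome 6, read 4.67, 4.55 and 4.64 in knockdown arrays, against 5.09, 5.12 and 5.18 in control arrays on probe set 11741700_s_at, a difference of -0.51 (SE 0.09, limma adjusted p = 0.00937). The arrays of each group were tightly grouped and well apart. The call ended with the spike-in covariate (limma adjusted p = 0.0546), and its other 2 probe sets, at means of 2.90 and 3.12, differed by -0.15 and -0.27 and were not called.

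The remaining calls among sets of 1 gene were in H2A and H1. HIST1H2AK (H2AC15) on probe set 11759219_at read 4.10, 3.82 and 4.15 in knockdown arrays, against 4.93, 4.96 and 4.45 in control arrays, a difference of -0.76 (SE 0.16, limma adjusted p = 0.0141). Its limma adjusted p was 0.0520 without knockdown array 2, 0.0637 without control array 1 and 0.185 with the spike-in covariate, and its second set, at a mean of 2.99, differed by -0.14. HIST3H2A (H2AC25), the H2A gene of the smaller chromosome 1 cluster, read 5.83, 6.10 and 5.59 in knockdown arrays, against 6.84, 6.47 and 6.48 in control arrays on 11758356_s_at, a difference of -0.75 (SE 0.15, limma adjusted p = 0.0143). Its call was lost without knockdown array 1 or control array 1 (limma adjusted p = 0.0589 and 0.0587) and with the spike-in covariate (0.185).

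HIST1H1C (H1-2), an abundant somatic linker histone, was the only H1 gene of the clusters called. Probe set 11742683_x_at read 8.45, 8.19 and 8.17 in knockdown arrays, against 8.65, 8.96 and 8.88 in control arrays, a difference of -0.56 (SE 0.12, limma adjusted p = 0.0187), or 67.9% of the control signal. The groups did not overlap, although knockdown array 1 came close to control array 1. The limma adjusted p was 0.0679 without knockdown array 2, 0.0680 without knockdown array 3, 0.0585 without control array 2 and 0.0714 with the spike-in covariate.

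**Figure D3:**
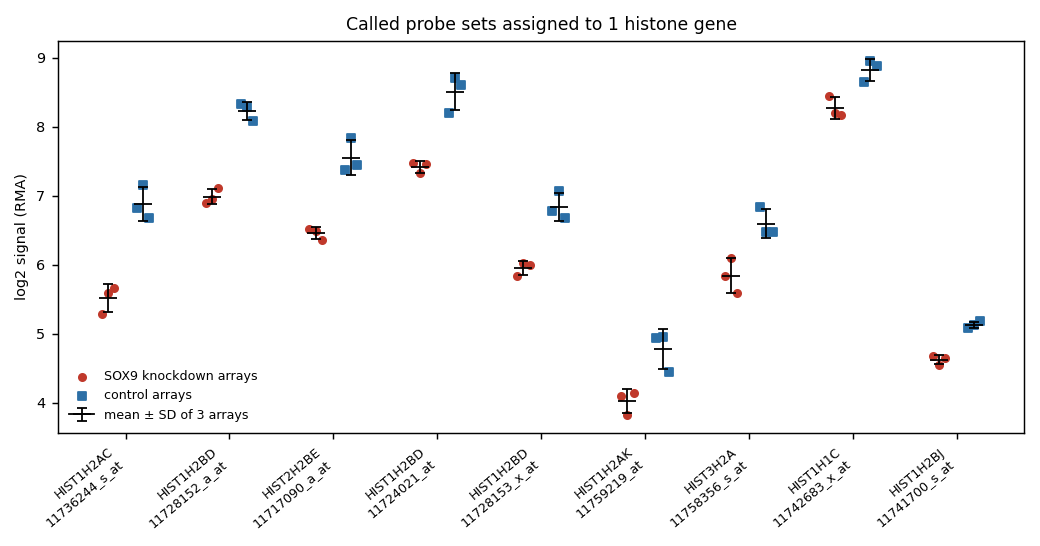
Log2 signal of the 9 called probe sets assigned to 1 histone gene on each knockdown (circles) and control (squares) array, with mean ± SD of 3 arrays. On every one of the 9 sets the highest knockdown array lies below the lowest control array.

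These 9 calls belonged to 7 genes; the other 26 genes with a probe set of their own had none. Among the 11 genes with more than 1 set of their own, 3 were called on some sets and not on others. The class medians were 0.05 for H1, -0.10 for H2A and -0.06 for H2B, and the H1 median changed sign between alternatives.

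Members that were not called included bright and well measured ones. HIST1H2BK (H2BC12), an H2B gene near HIST1H2BJ with a polyadenylated transcript, read 10.96, 10.93 and 11.11 in knockdown arrays, against 10.87, 11.18 and 10.98 in control arrays on 11717099_at. The groups overlapped fully, with a difference of -0.01 (SE 0.11, limma adjusted p = 0.980), although this set too aligned over a long stretch, 9016 bases. Its second set, 11761490_at, read 3.83, 3.93 and 3.81 in knockdown arrays, against 3.67, 3.64 and 3.67 in control arrays; every knockdown array lay above every control array, and the difference of 0.19 was not called (limma adjusted p = 0.222). HIST1H2BN (H2BC15) read 5.68, 5.76 and 5.66 in knockdown arrays, against 5.61, 5.81 and 5.68 in control arrays. Those groups overlapped as well (limma adjusted p = 0.987).

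HIST2H2AC (H2AC20), the H2A partner of HIST2H2BE, varied strongly within both groups. Probe set 11759258_at read 9.95, 8.75 and 9.42 in knockdown arrays, against 8.75, 8.51 and 9.60 in control arrays, a difference of 0.42 (SE 0.33, limma adjusted p = 0.496). Probe set 11715204_x_at differed by 0.49 (limma adjusted p = 0.356). Among knockdown arrays, array 1 was highest in HIST2H2AC and in the spike-in level, and among control arrays control 3 was highest in both. With the spike-in level as a covariate the differences were -0.33 and -0.23, still not called. HIST1H1D (H1-3) read 7.31, 6.55 and 6.45 in knockdown arrays, against 6.13, 6.50 and 6.77 in control arrays, with the same arrays at the top, and its difference of 0.30 (limma adjusted p = 0.487) became -0.14 with the covariate.

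Closest to the threshold among H2B sets of 1 gene was HIST1H2BH (H2BC9), with a difference of -0.38 on 11759111_x_at (limma adjusted p = 0.0547). Next was HIST2H2BC (H2BC20P, a pseudogene), with -0.47 (limma adjusted p = 0.0578). In both, every knockdown array lay below every control array. The other 2 sets of HIST1H2BH differed by -0.38 and -0.18 (limma adjusted p = 0.247 and 0.338). HIST1H2AD (H2AC7) had a difference of -0.31 (limma adjusted p = 0.0987), likewise with groups apart. For H1, HIST1H1A differed by 0.20 (limma adjusted p = 0.302) and HIST1H1E, another somatic linker histone, by -0.03 (limma adjusted p = 0.958). The only sets of 1 gene for H3 and H4, HIST3H3 and HIST1H4G, read below 5 on every array and differed by -0.09 and -0.14 (limma adjusted p = 0.667 and 0.559).

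The promoters of the 7 called genes and of HIST1H2BK, the bright H2B gene that was not called, are shown so that the called and uncalled H2B genes can be set side by side. Each line holds the 200 bases before the start site, 5′ to 3′ on the gene's own strand, from RefSeq on GRCh38.p14. Capitals mark the octamer ATTTGCAT, the CCAAT box and TATAAA on either strand, so that ATGCAAAT and ATTGG are their reverse forms.
HIST2H2BE (chr1:149886683-149886882, minus strand): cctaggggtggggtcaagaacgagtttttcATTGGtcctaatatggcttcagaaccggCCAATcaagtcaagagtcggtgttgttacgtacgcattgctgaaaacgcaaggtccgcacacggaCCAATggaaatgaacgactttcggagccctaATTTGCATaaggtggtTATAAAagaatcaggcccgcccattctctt
HIST1H2BJ (chr6:27132796-27132995, minus strand): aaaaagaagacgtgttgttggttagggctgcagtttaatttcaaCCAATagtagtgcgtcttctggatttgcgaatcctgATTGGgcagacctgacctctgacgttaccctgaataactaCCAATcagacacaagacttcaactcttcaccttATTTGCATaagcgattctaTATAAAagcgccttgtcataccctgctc
HIST1H2BK (chr6:27146859-27147058, minus strand): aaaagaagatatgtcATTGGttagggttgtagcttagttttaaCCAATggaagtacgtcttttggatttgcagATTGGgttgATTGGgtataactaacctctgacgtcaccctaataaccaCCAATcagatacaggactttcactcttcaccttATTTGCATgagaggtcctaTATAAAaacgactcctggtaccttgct
HIST1H2BD (chr6:26157921-26158120, plus strand): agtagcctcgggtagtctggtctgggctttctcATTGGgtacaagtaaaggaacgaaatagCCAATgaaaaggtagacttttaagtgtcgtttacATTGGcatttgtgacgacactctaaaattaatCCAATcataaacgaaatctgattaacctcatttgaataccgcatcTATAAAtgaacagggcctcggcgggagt
HIST1H2AC (chr6:26123972-26124171, plus strand): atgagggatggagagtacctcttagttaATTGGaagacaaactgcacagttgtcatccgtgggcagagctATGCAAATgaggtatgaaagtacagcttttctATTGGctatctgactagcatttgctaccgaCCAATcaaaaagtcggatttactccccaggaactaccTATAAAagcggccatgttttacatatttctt
HIST1H2AK (chr6:27838376-27838575, minus strand): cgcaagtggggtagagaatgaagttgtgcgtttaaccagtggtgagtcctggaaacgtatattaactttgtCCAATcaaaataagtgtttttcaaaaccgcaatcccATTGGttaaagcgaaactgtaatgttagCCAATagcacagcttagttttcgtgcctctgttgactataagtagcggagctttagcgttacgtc
HIST3H2A (chr1:228457874-228458073, minus strand): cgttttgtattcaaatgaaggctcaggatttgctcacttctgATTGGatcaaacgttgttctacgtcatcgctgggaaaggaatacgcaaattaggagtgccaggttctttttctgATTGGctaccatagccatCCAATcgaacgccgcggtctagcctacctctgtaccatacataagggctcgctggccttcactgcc
HIST1H1C (chr6:26056471-26056670, minus strand): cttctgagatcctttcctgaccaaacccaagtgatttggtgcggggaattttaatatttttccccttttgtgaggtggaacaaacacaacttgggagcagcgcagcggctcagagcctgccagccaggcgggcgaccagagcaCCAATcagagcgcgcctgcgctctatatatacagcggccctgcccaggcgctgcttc

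In that window, the forward octamer began 47 and 46 bases before the start in HIST1H2BJ and HIST2H2BE, which were called, and 46 bases before it in HIST1H2BK, which was not; HIST1H2BD, called on 3 sets, held none of these letters. HIST1H2AC held the octamer in reverse, and HIST1H2AK, HIST3H2A and HIST1H1C held none. Of 72 gene IDs on the histone probe sets 65 had a window in the table, giving 69 windows with alternative starts. The octamer was in 15 of 20 H2B windows (75.0%), 7 of 16 H2A windows (43.8%), 1 of 14 H3 windows and 0 of the H1 and H4 windows, against 1.31% of all 35116 windows. CCAAT was in all 6 H1, 16 H2A, 20 H2B and 14 H3 windows and in 3 of 13 H4 windows, against 28.0% of all. TATAAA was in 3 of 6 H1, 11 of 16 H2A, 11 of 20 H2B, 10 of 14 H3 and 6 of 13 H4 windows, against 8.59%. ACAAAG and ACAATG, letters that proteins of the SOX family are known to bind, were searched on both strands as well. ACAAAG was in 1 H2A and 1 H2B window (11.0% of all windows), and among the promoters shown only in that of HIST1H2AK. ACAATG was in 1 H1, 1 H2A, 2 H2B and 1 H3 window (7.54% of all) and in none of those shown. A match is a description of letters and not a binding site.

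H2A and H2B genes often lie head to head and share the stretch between their start sites. RefSeq held 11 such pairs with starts at most 500 bases apart, and 5 had a set of their own on both sides; the set with the highest signal was taken, and this comparison was chosen after the values were seen. In 2 of them the aligned target of one gene ran across its partner on the other strand. That of HIST2H2BE, 149856011 to 149859515, covered that of HIST2H2AC, 149858467 to 149858935. The HIST1H2AK target, 27803285 to 27807260, covered that of HIST1H2BN, 27806439 to 27806888. Whether the transcripts read there begin at the paired start sites was not measured. HIST2H2BE was called lower while HIST2H2AC, whose start lies 236 bases away, was not called. Relative to the control mean, HIST2H2AC minus HIST2H2BE was 2.04, 0.86 and 1.66 in knockdown arrays, against -0.01, -0.73 and 0.75 in control arrays, a mean difference of 1.52, which became 0.75 with the spike-in covariate. HIST3H2A minus HIST3H2BB was -0.83, -0.81 and -1.08 in knockdown arrays, against 0.11, -0.01 and -0.10 in control arrays. HIST1H2AK minus HIST1H2BN was -0.66, -1.02 and -0.59 in knockdown arrays, against 0.24, 0.07 and -0.31 in control arrays. In these 3 pairs the groups did not overlap, with a two-sided exact permutation p of 0.1, the smallest possible (adjusted 0.167 over the 5 pairs), so the design could not reach the threshold. Each of the 3 holds a set called in the same comparison, so their separation follows from those calls and is no further support. In HIST1H2AA with HIST1H2BA and in HIST1H2AJ with HIST1H2BM the groups overlapped (exact permutation p = 0.7 and 1.0), and none of their sets was called. HIST1H2AC, HIST1H2AD and HIST1H2BJ have partners that were measured on shared sets only.

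**Figure D4:**
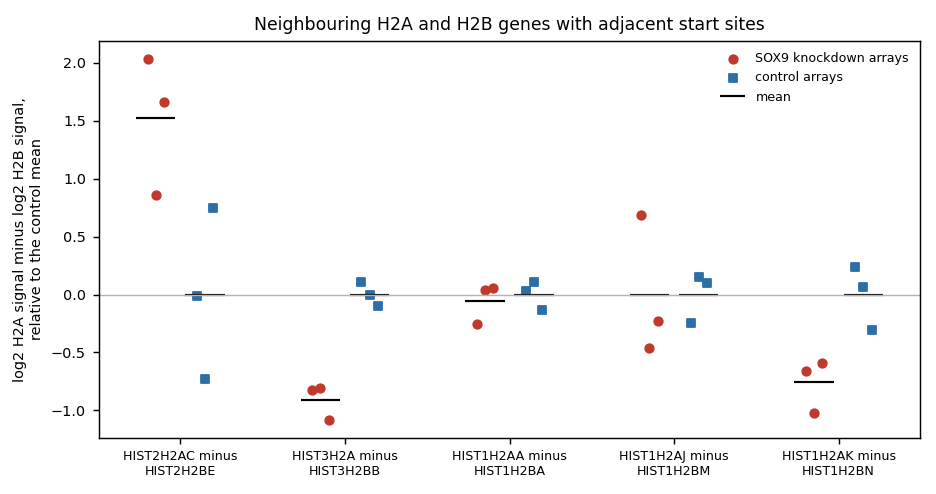
Within-array difference of log2 signal, H2A minus H2B, for 5 pairs of neighbouring genes with adjacent start sites, relative to the mean of the control arrays; circles are knockdown and squares control arrays, bars are means. The pair HIST2H2AC and HIST2H2BE has the widest spread among arrays of one group and a mean difference of 1.52.

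Among shared probe sets, H2A led the calls. Of 13 shared H2A sets 6 were lower (46.2%, against 6.68% of all probe sets), with a median of -0.45 and 13 negative differences. The 6 came in pairs that list the same genes and have the same or overlapping alignments, so they may not be of separate transcripts. None of 11 shared H2B sets was called (1 at an unadjusted p under 0.05 and a median of -0.03), and 3 of 19 H3 sets, 2 of 18 H4 sets and 1 of 2 mixed sets were lower. The count of 12 fell to 7 without knockdown array 1, without knockdown array 3 or without control array 1, and was 3 with the spike-in covariate.

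Probe sets 11759131_at and 11734234_at both list 6 H2A genes from HIST1H2AG to HIST1H2AM, and the table aligns both to chromosome 6, positions 27100816 to 27103070, next to the target of HIST1H2BJ at 27099769 to 27100575 on the other strand. The first read 6.32, 6.56 and 6.39 in knockdown arrays, against 7.57, 7.92 and 7.56 in control arrays, a difference of -1.26 (SE 0.13, limma adjusted p = 0.000810). The second read 4.41, 4.08 and 4.09 in knockdown arrays, against 5.32, 5.47 and 4.92 in control arrays, a difference of -1.04 (limma adjusted p = 0.00431, or 0.0739 with the spike-in covariate). Both showed clear gaps between the groups. Each has this 1 alignment only, and RefSeq places the start of H2AC11, a member of the 6, 248 bases from that of HIST1H2BJ (H2BC11). Probes were not matched to the copies, so which of the 6 genes gave the signal was not measured. Of the 9 sets that list these 6 genes, the other 7 are aligned elsewhere on chromosome 6. They differed by -0.52 to -0.03 and were not called. In 1 of the 7 every knockdown array lay below every control array, which held for 14.8% of all probe sets.

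For H4, probe set 11742669_s_at lists 14 genes and has 2 alignments, the first on chromosome 1 at 149804220 to 149804616. It read 6.89, 7.26 and 7.14 in knockdown arrays, against 8.53, 8.41 and 7.93 in control arrays. The groups were apart, and the difference was -1.19 (SE 0.17, limma adjusted p = 0.00310). A dimmer set with its first alignment at the same place, 11759256_at (149804220 to 149804614, mean 3.69), differed by -0.07 and was not called (limma adjusted p = 0.810). The brightest H4 sets, 11726245_s_at and 11726246_x_at, list 14 genes too but are aligned to chromosome 6 at 26104159 to 26104857. Of 18 sets that list these 14 genes, 16 were not called, at -0.61 to 0.21. In 5 of the 16 every knockdown array lay below every control array, which held for 14.8% of all probe sets. The 16 list the same genes, so they are not separate members. The bright pair, which is among the 5 and shares 1 alignment, differed by -0.20 and -0.24 (limma adjusted p = 0.381 and 0.181). Another H4 set, 11738060_s_at, differed by -0.61 and just missed the threshold (limma adjusted p = 0.0553).

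HIST1H2AB and HIST1H2AE share probe sets 11731694_s_at and 11731693_at. The first read 5.47, 5.45 and 5.45 in knockdown arrays, against 5.82, 6.10 and 6.16 in control arrays, a difference of -0.57 (SE 0.11, limma adjusted p = 0.0123, or 0.0530 without knockdown array 1). The second differed by -0.50 (limma adjusted p = 0.0374) and lost its call without any single array other than control array 1, with limma adjusted p-values of 0.0655 to 0.115. Both are aligned to chromosome 6 at 26217145 to 26217707. HIST1H2AB also has a set of its own, 11741215_at, aligned elsewhere, at 26033319 to 26033844. That set, at a mean of 3.29, differed by -0.08 and was not called (limma adjusted p = 0.686).

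HIST2H2AA3 and HIST2H2AA4, duplicated H2A genes of chromosome 1, share 11742688_s_at and 11742657_x_at. The first read 8.87, 9.10 and 8.94 in knockdown arrays, against 9.40, 9.57 and 9.58 in control arrays, a difference of -0.54 (SE 0.11, limma adjusted p = 0.0124, or 0.0644 without knockdown array 1). The second differed by -0.45 (limma adjusted p = 0.0128), with 0.0560 without knockdown array 1 and 0.0508 without control array 1. Groups were apart on both, by less than on the sets of HIST1H2AG to HIST1H2AM.

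Calls in H3 were on sets shared by 2 or 10 genes. Sets 11732103_s_at and 11759076_at share an alignment, chromosome 6 at 27777715 to 27778535. That of 11741186_at, 26196982 to 26199521, covers that of the called mixed set 11738058_s_at, 26198964 to 26199521. These calls may therefore not be of separate transcripts. Probe set 11732103_s_at, which lists 10 H3 genes, read 4.01, 3.95 and 3.82 in knockdown arrays, against 4.38, 4.66 and 4.41 in control arrays, a difference of -0.56 (SE 0.11, limma adjusted p = 0.0135, or 0.0522 without knockdown array 3). Sets 11759076_at (HIST1H3F and HIST1H3H) and 11741186_at (10 genes) differed by -0.50 and -0.37 (limma adjusted p = 0.0222 and 0.0384). The call of 11759076_at was lost without knockdown array 2 or 3 or control array 1 or 2 (limma adjusted p = 0.0597 to 0.0805), and that of 11741186_at without any one of the 6 arrays (0.0553 to 0.138). The remaining calls were the H4 set 11733369_x_at (-0.54, limma adjusted p = 0.0133, or 0.0597 without control array 1) and the mixed set 11738058_s_at (-0.49, limma adjusted p = 0.0215). The mixed set, which lists HIST1H2AD and H3 genes, lost its call without knockdown array 1 or 3 or control array 1 (limma adjusted p = 0.0676 to 0.101). Among uncalled shared H2B sets the smallest p was that of 11734796_s_at, at -0.42 (limma adjusted p = 0.0541), which also lists 1 gene outside the clusters.

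**Figure D5:**
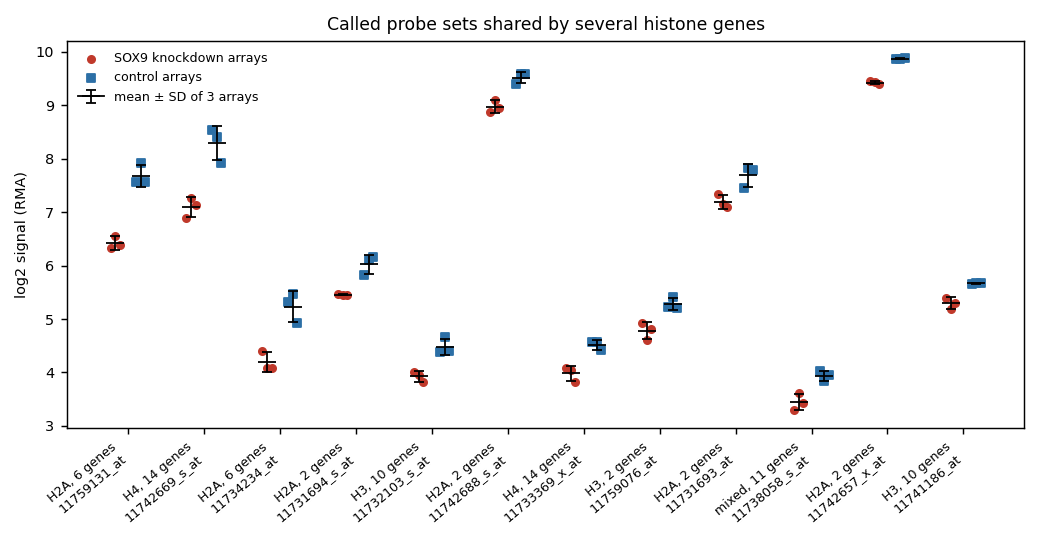
Log2 signal of the 12 called probe sets shared by several histone genes on each knockdown (circles) and control (squares) array, with mean ± SD of 3 arrays; labels give the class and the number of genes listed. The widest gaps are those of 2 H2A sets of 6 genes and of an H4 set of 14 genes.

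Many variant histones outside the clusters, though not all, are polyadenylated and made through the whole cycle. H2AFJ, an H2A variant, was lower on both of its sets, with differences of -0.98 and -0.75 (limma adjusted p = 0.00994 and 0.00551), with limma adjusted p-values of 0.144 and 0.0716 when the spike-in level was a covariate.

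H1FX (H1-10) had 1 of its 2 sets called, at -0.53 (limma adjusted p = 0.0350); that call was lost without any single array other than control array 1 (limma adjusted p = 0.0573 to 0.111). H2AFZ (H2A.Z), on 4 sets, differed by 0.09 to 0.16, H2AFX, the variant phosphorylated at DNA breaks, by 0.37 (limma adjusted p = 0.103), and CENPA, the centromere variant, by -0.16; none of these was called.

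Lists of genes that make, process or handle histone messages are given beside the array-wide shares of 5.94% called higher and 6.68% called lower. Of 56 probe sets for 3' end processing and transcription of histone genes, 8 were higher and 2 lower (3.57%). Of the 8, 6 belonged to SRRT (ARS2), which links the cap complex to RNA processing, at 0.69 to 1.05. On 11717918_a_at SRRT read 8.37, 8.16 and 8.05 in knockdown arrays, against 6.94, 6.83 and 7.66 in control arrays (limma adjusted p = 0.0116), a set whose call was lost without knockdown array 1 (0.0551) or control array 1 (0.0536). Control array 3 lay nearest to the knockdown arrays. With the spike-in covariate all 6 SRRT sets lost their calls, at differences of 0.54 to 0.65 (limma adjusted p = 0.0917 to 0.189); its other 2 sets, at 0.33 and 0.80, were not called. YY1 differed by -0.56 on 1 of its 7 sets (limma adjusted p = 0.00629, or 0.0596 with the spike-in covariate) and by -0.36 to -0.05 on the other 6, which were not called. CASP8AP2 (FLASH), a factor of histone message processing, differed by -0.50 (limma adjusted p = 0.0249, lost without 4 of the arrays) and CSTF2, a cleavage factor, by 0.48 (limma adjusted p = 0.0243, lost without 5). The second CSTF2 set differed by 0.36 and was not called. SLBP, which binds the stem-loop, differed by -0.07 and -0.29 and NPAT, the coactivator of cluster genes, by -0.03 to 0.03; neither was called.

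Of 17 probe sets for tailing and decay of histone messages, 2 were higher (11.8%) and 1 lower (5.88%): DCP2, a decapping enzyme, at 0.85 and 0.67, and ZCCHC11 (TUT4), a uridyl transferase, at -0.55 (limma adjusted p = 0.00174, 0.0162 and 0.0115). The second ZCCHC11 set differed by 0.04 and was not called, and the called one had a limma adjusted p of 0.0914 with the spike-in covariate. The DCP2 set at 0.67 lost its call without knockdown array 1 or 3 or control array 1 (0.0570 to 0.0674). The other 3 DCP2 sets differed by -0.17 to 0.18 and were not called. Of 69 sets for histone chaperones 4 were higher (5.80%) and 1 lower (1.45%), with HIRA, the chaperone of H3.3, at 0.53, NAP1L1 at 0.52, IPO4, an importin of histones, at 0.49 and HJURP, which loads CENPA, at 0.44. NAP1L1 was called on 1 of its 10 sets, and the other 9 differed by -0.32 to 0.19; the second HIRA set differed by 0.23 and was not called. Each of these 4 calls was lost when one or more single arrays were left out, and without knockdown array 1 or control array 1 none of the chaperone sets was called higher.

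Of 59 probe sets for S phase markers, 6 were higher (10.2%) and 3 lower (5.08%), against 5.94% and 6.68% of all probe sets. CCNE1 (cyclin E1) differed by 0.81 (limma adjusted p = 0.0109), CDC25A, a phosphatase that drives entry into S phase, by 0.76 and 0.71 (0.00822 and 0.00470), RRM2 by 0.65 and 0.59 (0.0132 and 0.0146), and PRIM1, a primase subunit, by -0.76 (0.00187). The second CCNE1 set differed by 0.22 and the third CDC25A set by 0.46, and neither was called. CCNE1 lost its call without knockdown array 1 or control array 1 (0.0504 and 0.0512), and both RRM2 sets without knockdown array 1, knockdown array 3 or control array 1. PCNA, the replication clamp, differed by -0.12 and -0.14 and was not called. Over the 5 lists, 20 sets were called higher and 14 lower, and the 20 became 4 without knockdown array 1 or control array 1, 32 without control array 3 and 1 with the spike-in covariate.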

How the data were processed

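RNA was measured on 6 arrays, 3 per group, with groups taken from titles, source names and genotype labels. The deposited table holds log2 signals that the authors made with RMA and the affy package, per the submitters' processing notes; for versions, array design and genome build the sources used here give nothing. RMA equalises the arrays' distributions, which takes out a shift common to most transcripts and narrows differences at low signal. Precision is limited by the number of arrays.

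All 49293 non-control probe sets (79 controls left out) were fitted with limma 3.58.1 in R 4.3.3 (lmFit, eBayes, two-sided, no filter, no covariate). Differences are knockdown minus control, and p-values were adjusted by Benjamini-Hochberg over all of them, with a threshold of 0.05. Values that share no model were compared by exact permutation with scipy 1.17.1; tables and plots used Python 3.11.15, pandas 2.3.3, numpy 2.4.6 and matplotlib 3.10.9. The fit was tested on simulated data. Current symbols came from the Entrez numbers through a RefSeq table of GRCh38.p14, which held all 72 IDs.

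Members, lists and the spike-in covariate were chosen with earlier results of these data known. Named were SOX9; per class, the called sets of 1 gene up to the 6 of largest change, the 2 uncalled with the smallest p and the 2 uncalled with the highest signal; 6 called and 2 uncalled shared sets, the other called ones being added for completeness; up to 4 called members of each list. A gene that meets this rule is not reported here. SLBP, NPAT, PCNA, H2AFZ, H2AFX, CENPA and the brightest H4 sets were added after their values were seen. Same-numbered arrays of the groups had correlations of deviations of -0.24, -0.40 and -0.42, so the numbers do not pair them. The alternatives were further normalization, centring, a signal minimum of 5, another variance model, array weights, a replicate block, the spike-in covariate, the series matrix values, and leaving out each array.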

Additional observations from a re-analysis of the deposited data

How the results depend on the processing

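No histone probe set was called higher under any of the 14 alternatives, and 6 of the 21 called sets were called under every one that held them: HIST1H2AC, HIST2H2BE, 11724021_at and 11728152_a_at of HIST1H2BD, and the shared sets 11742669_s_at and 11759131_at. With the poly-A spike-in covariate 14 of the 21 calls were lost, at differences of -0.89 to -0.41 that all stayed negative and kept 75.4% to 133% of their size; 4 sets of 1 gene, 3 shared sets and 990 of all probe sets were then called, 7 and 1 sets of the pathway lists were lower and higher, and the medians were -0.11 for H1 and -0.17 for H2A. That covariate also costs a degree of freedom, and the cause was not tested. With a replicate block 7 shared sets, 13 list sets higher and 3343 of all were called; HIST1H1C and HIST1H2BJ lost their calls (limma adjusted p = 0.0629 and 0.0512). A signal minimum of 5 left only 3 H2A and 6 H2B sets of 1 gene, with medians of -0.75 and -0.99. The H2A sets ran from -1.37 (HIST1H2AC) to 0.42 (HIST2H2AC). Of the H2B sets, which ran from -1.25 to -0.004, 3 were of HIST1H2BD. The class medians in this section are over sets of 1 gene.

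Leaving out 1 array gave 7 to 10 lower sets of 1 gene, 7 to 12 shared, 2508 to 8757 of all probe sets, 9 to 18 list sets lower and 4 to 32 higher; 12 of the 21 calls were lost in at least 1 such fit. Class medians over sets of 1 gene then ran from -0.054 to 0.17 for H1, -0.11 to -0.06 for H2A and -0.14 to -0.049 for H2B. H3 and H4 had only 1 such set each, HIST3H3 and HIST1H4G, both dim. Their differences ran from -0.15 to -0.03 and from -0.27 to -0.07, and the shared H3 and H4 sets are not in them. Further normalization, centring, the other variance model, array weights and the series matrix values kept these counts within 1.5 times and the medians within the spread between arrays. Signals under 5, which most histone sets had, limit what can be detected, and an uncalled set is not shown to be unchanged.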
